A study of Homo sapiens with 8 samples.

Results

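Axon guidance ligands and receptors were examined in the triple-negative breast cancer line MDA-MB-231, in cells given an siRNA against ADAR1 or a control siRNA. Members were chosen by name (semaphorins, plexins, neuropilins, ephrins, Eph receptors, netrins, UNC5 receptors, Slits, Robos and L1CAM) and by a mean estimated count of at least 10 over the 8 libraries. Of the 19892 genes measured, 69 bore such a name and 49 reached that count. The members were 17 semaphorins, 9 plexins, 2 neuropilins, 9 Eph receptors, 6 ephrins, 3 Robos, 1 Slit (SLIT2), 1 netrin (NTN4) and L1CAM. The 20 genes below the minimum included all 4 UNC5 receptors. EPHB6 and EPHA6, each with a mean count of 10.4, lay just inside the minimum, and SEMA5A (7.25) and UNC5B (5.50) just outside it.

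Guidance cues are secreted or membrane-bound ligands that steer growing axons, migrating cells and sprouting vessels by attraction or repulsion. Semaphorins signal through plexins, and most secreted class 3 semaphorins need a neuropilin as the ligand-binding co-receptor. Ephrins on one cell bind Eph receptor tyrosine kinases on the next and can signal in both cells, Slits bind Robo receptors, and L1CAM is a cell adhesion molecule of the immunoglobulin family that guides axons and also associates with neuropilin. Many of these genes are expressed in carcinomas, where they have been studied in invasion and vessel growth.

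The design set ADAR1 siRNA against control siRNA in 2 assays. RNA-seq, called Input in the labels, measured longer RNA fragments, and ribosome profiling (Ribo-seq) measured ribosome-sized fragments, called footprints here. Each of the 4 groups held 2 libraries: ADAR1 siRNA Ribo-seq, control siRNA Ribo-seq, ADAR1 siRNA Input and control siRNA Input. All groups share the 1 cell line, and the labels do not say how long after transfection cells were harvested. They also do not say whether replicates came from separate cultures, so the spread behind each p-value may be technical.

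Depth ran from 10492223 to 17153716 estimated counts per library. ADAR, which encodes the adenosine-to-inosine RNA editing enzyme ADAR1, stood at 14.8 and 30.6 TPM (a level per transcript length and library size) in ADAR1 siRNA Input, against 106.2 and 110.2 TPM in control Input. In Ribo-seq it stood at 1.55 and 8.41 TPM with ADAR1 siRNA, against 19.1 and 20.3 TPM in controls. The 2 ADAR1 siRNA libraries differed from each other more than the 2 controls did. The standard deviation over genes of the log2 difference between replicates was 0.398 with ADAR1 siRNA and 0.276 with control siRNA in Input, and 0.489 with ADAR1 siRNA and 0.405 with control siRNA in Ribo-seq. Of the line's markers, VIM, CD44, AXL, CAV1, EGFR, MSN, FN1, SPARC and ZEB1 were detected and TWIST2 was listed at 0. ESR1, PGR, CDH1 and FOXA1 stayed under 1 TPM in each library, while ERBB2, EPCAM, GATA3, KRT8, KRT18 and KRT19 were detected. Footprints of this luminal and epithelial list summed to 551.9 and 817.5 TPM with ADAR1 siRNA, against 1067.5 and 1295.1 TPM with control siRNA. By edgeR 2 of its 6 tested genes were called lower in footprints, against 1.67% of all genes. The part of these markers in the guidance results was not tested.

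Guidance genes together took more of the footprints after ADAR1 siRNA, and slightly less of the RNA. The 49 genes held 0.293% and 0.299% of Ribo-seq counts with ADAR1 siRNA, against 0.217% and 0.207% with control siRNA. In Input they held 0.280% and 0.275% with ADAR1 siRNA and 0.290% and 0.292% with control siRNA. NRP1 alone made up 22.7% and 27.0% of their summed footprint TPM with ADAR1 siRNA and 23.0% and 22.5% with control siRNA, and EPHA2 made up 19.5% and 18.3% with ADAR1 siRNA, against 24.0% and 25.8% with control siRNA. In Input EPHA2 made up 15.2% and 15.6% of the summed TPM with ADAR1 siRNA, against 19.7% and 19.5% with control siRNA. NRP1 made up 21.6% and 24.4% in Input with ADAR1 siRNA, against 18.3% and 19.2% with control siRNA. The groups did not overlap in either assay in the members' share of counts, higher with ADAR1 siRNA in footprints and lower in RNA.

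Among single genes, 6 of the 46 members tested were called higher in footprints after ADAR1 siRNA. They were the secreted ligands NTN4 and SEMA3C, the membrane-anchored ligands EFNB2 and SEMA7A, and both neuropilins, NRP1 and NRP2, with rises of 1.61-fold to 2.59-fold. No member fell. By the edgeR quasi-likelihood test, with p-values adjusted by the Benjamini-Hochberg method over 12000 genes, 13.0% of tested members were called higher, against 1.88% of all genes tested, and 0 were called lower, against 1.67%. At an unadjusted p under 0.05, 21 members (45.7%) were higher and 0 were lower, against 12.7% and 11.3% of all genes. Limma-voom called 6 members too, and 250 of all 12000 genes. On library-scaled counts, 30 members (65.2%) had both ADAR1 siRNA libraries above both controls, against 30.1% of all genes. EFNA3, EPHA7 and SEMA3F (6.52%) had both below, against 26.2%. The median log2 fold change was 0.49 over the 46 members and 0.05 over all genes tested. Above 0 were 38 members, and 6527 of all 12000 genes. Each control Ribo-seq library bore on these calls. Without control replicate 2 only NTN4 remained called of the 6, while the log2 fold changes of the other 5 were 0.67 for NRP1, 0.75 for SEMA7A, 0.88 for NRP2, 0.90 for SEMA3C and 1.06 for EFNB2. Without control replicate 1, NRP1 and SEMA7A were not called, each at 0.69.

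In RNA the picture was different. By edgeR SEMA3C rose and L1CAM fell, 2 of 48 members tested, while 0.253% of all 12644 genes tested were called. DESeq2 called 8 members in RNA: NTN4 and SEMA3C higher, and EPHA2, L1CAM, PLXNA2, PLXND1, SEMA4C and SEMA6B lower. Over all genes DESeq2 called 449 of 12644 in RNA. At an unadjusted p under 0.05, 15 members (31.2%) were lower, against 13.5% of all genes, and 5 (10.4%) were higher, against 11.8%. Both ADAR1 siRNA libraries lay below both controls for 24 members (50%), against 29.7% of genes, and above them for 8 (16.7%), against 28.5%. The members' median log2 fold change was -0.18, and that of all genes was 0.00. Below 0 were 33 of 48 members, and 6240 of all 12644 genes. Without either one of the 2 control Input libraries no member was called, at log2 values of 0.67 and 0.65 for SEMA3C and -0.99 and -0.94 for L1CAM.

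**Figure D1:**
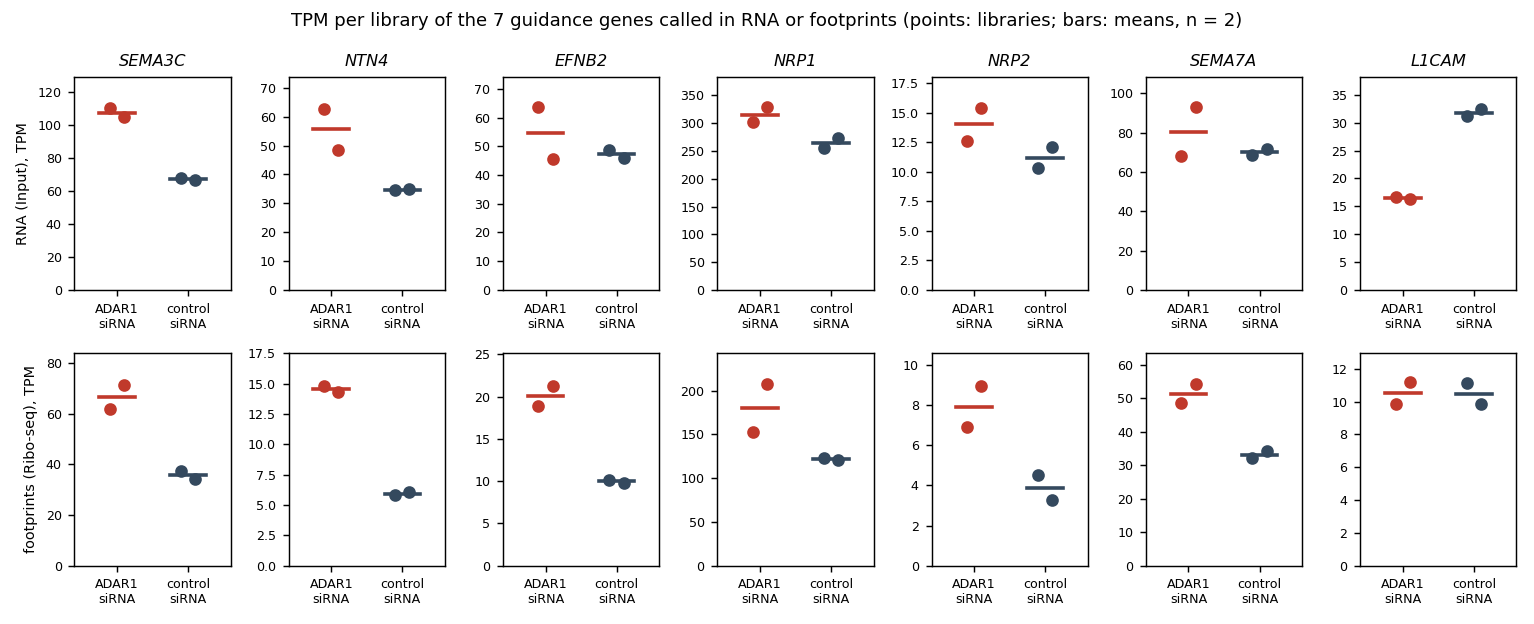
Levels (TPM, y axes starting at 0) of the 7 guidance genes with an adjusted p under 0.05 in RNA (upper row) or footprints (lower row), with ADAR1 siRNA left of control siRNA. Points are single libraries and bars their mean (n = 2); the ADAR1 siRNA footprint points of NTN4, SEMA3C, EFNB2, SEMA7A, NRP1 and NRP2 lie above both controls, and those of L1CAM overlap.

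**Figure D2:**
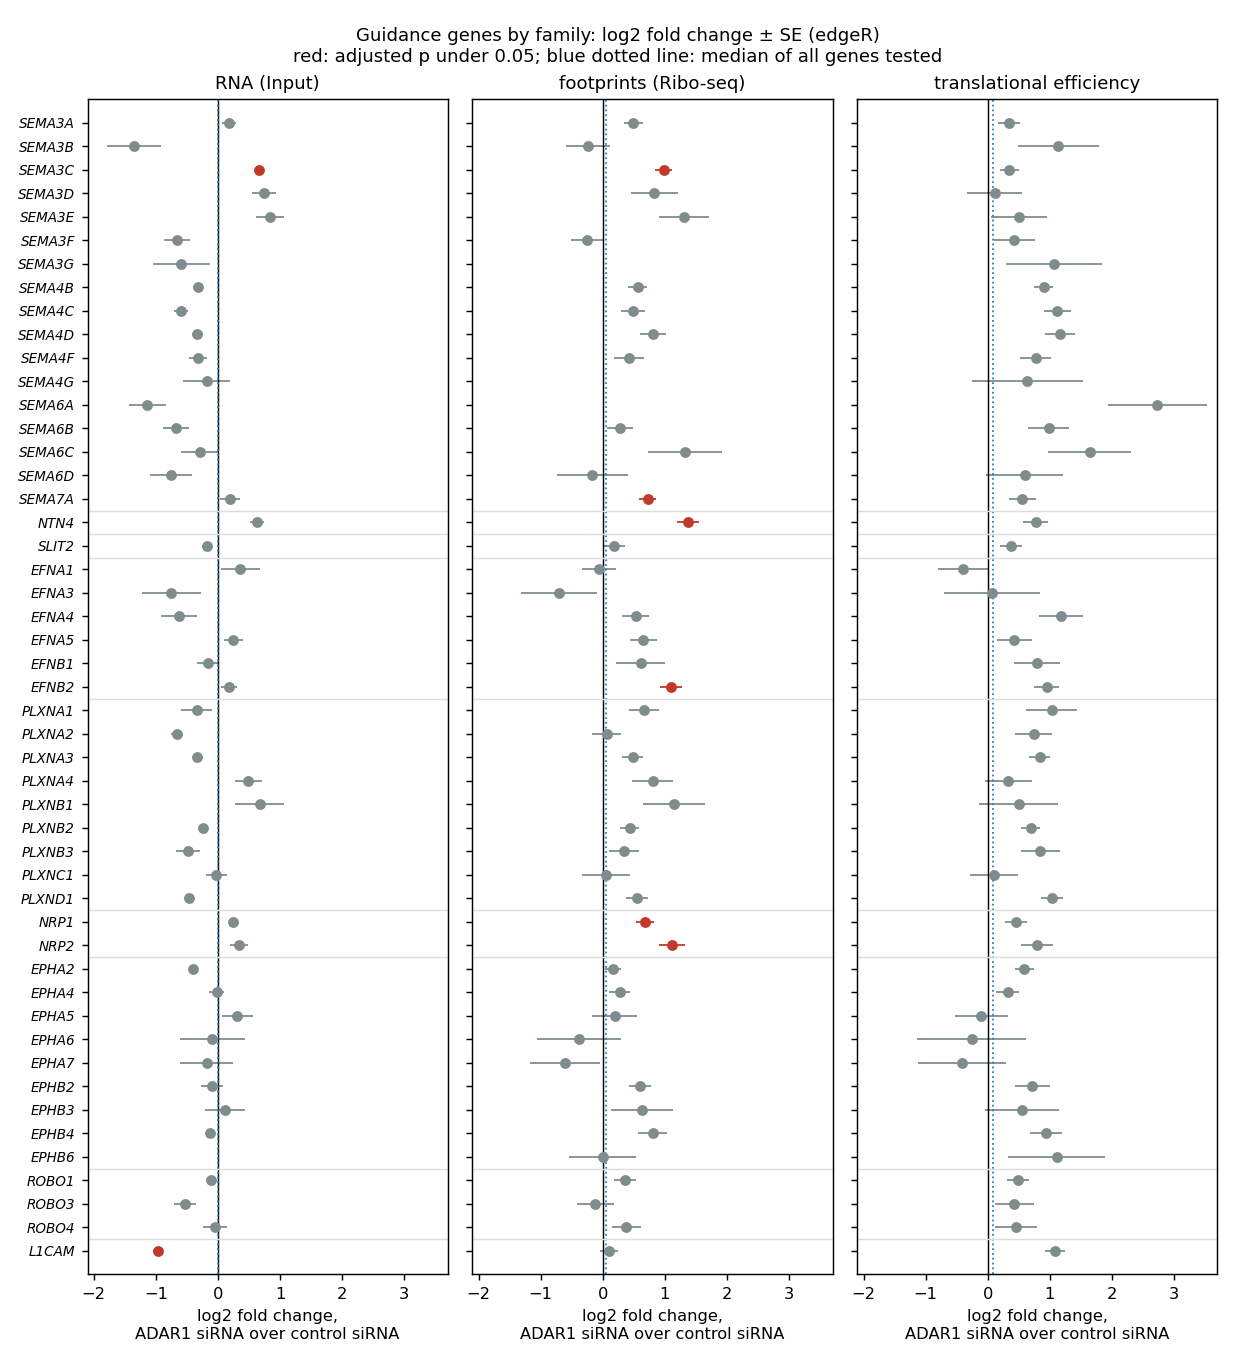
Log2 fold changes (ADAR1 siRNA over control siRNA, x axes) of the 49 guidance genes by family, in panels for RNA, footprints and translational efficiency (footprints per RNA), with bars of 1 standard error, red for an adjusted p under 0.05 and a dotted line at the median of all genes tested. Most RNA values lie left of 0 and most values in the other panels right of it, with medians of -0.18 in RNA, 0.49 in footprints and 0.64 in translational efficiency; a gene not tested in an assay has no point there.

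In control RNA 2 receptors stood far above the other members. EPHA2 averaged 277.0 TPM and NRP1 264.5 TPM, above 95.8% and 95.5% of the genes tested. PLXNB2 (71.7 TPM), SEMA7A (70.1), EPHB2 (69.2), SEMA3C (67.4) and PLXNA1 (64.7) followed, and neighbours in this order overlapped between replicates except SEMA3C and PLXNA1, which were barely apart. EFNB2 averaged 47.4 TPM, SEMA4B 40.3, NTN4 34.7 and L1CAM 31.8. At the other end SEMA3G, PLXNB1, EPHA7 and EPHB6 were the lowest 4, all under 1 TPM. In bulk cells such as these, fewer cells expressing a gene and less RNA per cell cannot be told apart.

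Secreted class 3 semaphorins, the largest semaphorin class here with 7 members, had RNA values on both sides of 0. SEMA3C, a secreted ligand of neuropilin and plexin complexes with roles in heart and vessel development, had 110.1 and 104.7 TPM in ADAR1 siRNA Input, against 67.9 and 66.9 TPM in control Input. SEMA3C footprints were at 61.9 and 71.2 TPM with ADAR1 siRNA, against 37.5 and 34.4 TPM with control siRNA. SEMA3C was thus higher in every ADAR1 siRNA library of both assays, and it was the only guidance gene that edgeR called in both, while DESeq2 called NTN4 in both too. Its log2 fold change was 0.66 ± 0.06 (SE) in RNA, or 1.58-fold, with an edgeR adjusted p of 0.0453. In footprints it was 0.98 ± 0.14, or 1.97-fold, with an adjusted p of 0.0239.

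SEMA3C (NCBI gene 10512; GRCh38.p14 chromosome 7, 80742538 to 80922389, minus strand) is shown with the bases before its RefSeq starts, because it was the one guidance gene that edgeR called higher in both assays. NTN4 (NCBI gene 59277; chromosome 12, 95657807 to 95791155) and L1CAM (NCBI gene 3897; chromosome X, 153861514 to 153886173) are set beside it as the member with the largest called rise and the one that edgeR called lower in RNA. Each line gives 250 bases 5′ to 3′ on the minus strand of GRCh38.p14, from RefSeq, and capitals mark a GC box (GGGCGG on either strand).
SEMA3C, start of the gene, chr7:80922390-80922639: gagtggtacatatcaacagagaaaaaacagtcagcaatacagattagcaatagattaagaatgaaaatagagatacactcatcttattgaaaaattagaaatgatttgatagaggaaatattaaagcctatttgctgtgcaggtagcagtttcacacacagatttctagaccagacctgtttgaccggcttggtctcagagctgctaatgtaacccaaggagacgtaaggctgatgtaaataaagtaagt
SEMA3C, start inside the gene, chr7:80919052-80919301: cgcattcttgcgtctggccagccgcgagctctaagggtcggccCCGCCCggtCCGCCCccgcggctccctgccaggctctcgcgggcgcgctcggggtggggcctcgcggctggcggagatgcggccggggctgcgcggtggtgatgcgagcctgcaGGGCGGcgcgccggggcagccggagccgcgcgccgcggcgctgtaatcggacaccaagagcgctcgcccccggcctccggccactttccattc
NTN4, start of the gene, chr12:95791156-95791405: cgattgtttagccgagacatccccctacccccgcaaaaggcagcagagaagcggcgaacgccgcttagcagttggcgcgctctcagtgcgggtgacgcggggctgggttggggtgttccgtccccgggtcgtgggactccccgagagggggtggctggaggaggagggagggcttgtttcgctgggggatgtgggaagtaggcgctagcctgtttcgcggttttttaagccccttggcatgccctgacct
L1CAM, start inside the gene, chrX:153876015-153876264: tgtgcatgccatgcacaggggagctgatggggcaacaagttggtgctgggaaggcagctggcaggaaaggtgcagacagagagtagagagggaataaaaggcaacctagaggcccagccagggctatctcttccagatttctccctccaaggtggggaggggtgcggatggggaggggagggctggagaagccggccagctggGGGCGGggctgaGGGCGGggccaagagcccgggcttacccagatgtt
The pair of SEMA3C windows differ most: the one at the start of the gene was 36.4% G or C with 2 CpG and no GC box, and the one inside it was 77.6% G or C with 39 CpG and 3 GC boxes. The NTN4 window was 64.4% G or C with 20 CpG and no GC box, and the L1CAM window 62.8% with 5 CpG and 2 GC boxes. Over 35116 RefSeq windows of this length the median was 58.0% G or C with 11 CpG, and 42.6% held a GC box. Searched on both strands, the letters TATAAA (10.7% of all windows), CCAAT (32.0%), TGANTCA (6.57%), CACGTG (6.34%) and TGACGTCA (1.65%) were in none of the 4 windows. Letter matches describe these windows and say nothing of a factor's binding, and which start was used in these cells was not measured.

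The other class 3 semaphorins were not called. SEMA3A, the repulsive cue first known for collapsing growth cones, had a log2 fold change of 0.18 ± 0.11 in RNA and 0.49 ± 0.15 in footprints. SEMA3D stood at 0.74 ± 0.19 in RNA and SEMA3E, a ligand of PLXND1, at 0.84 ± 0.22, with both ADAR1 siRNA libraries above both controls. These 3 lie on chromosome 7 with SEMA3C, between 80742538 and 85250243, and all 4 RNA values were above 0. The 3 members on chromosome 3, between 50155058 and 52445103, had RNA values below 0: SEMA3B at -1.35 ± 0.43, SEMA3F at -0.66 ± 0.21 and SEMA3G at -0.59 ± 0.46. Both ADAR1 siRNA Input libraries lay below both controls for these 3 genes, though the SEMA3B replicates were far apart, at 6.64 and 2.11 TPM with ADAR1 siRNA, against 11.6 and 10.4 TPM with control siRNA. Of the 7 genes, SEMA3C alone passed the adjusted threshold, so the split by chromosome is a description of values.

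**Figure D3:**
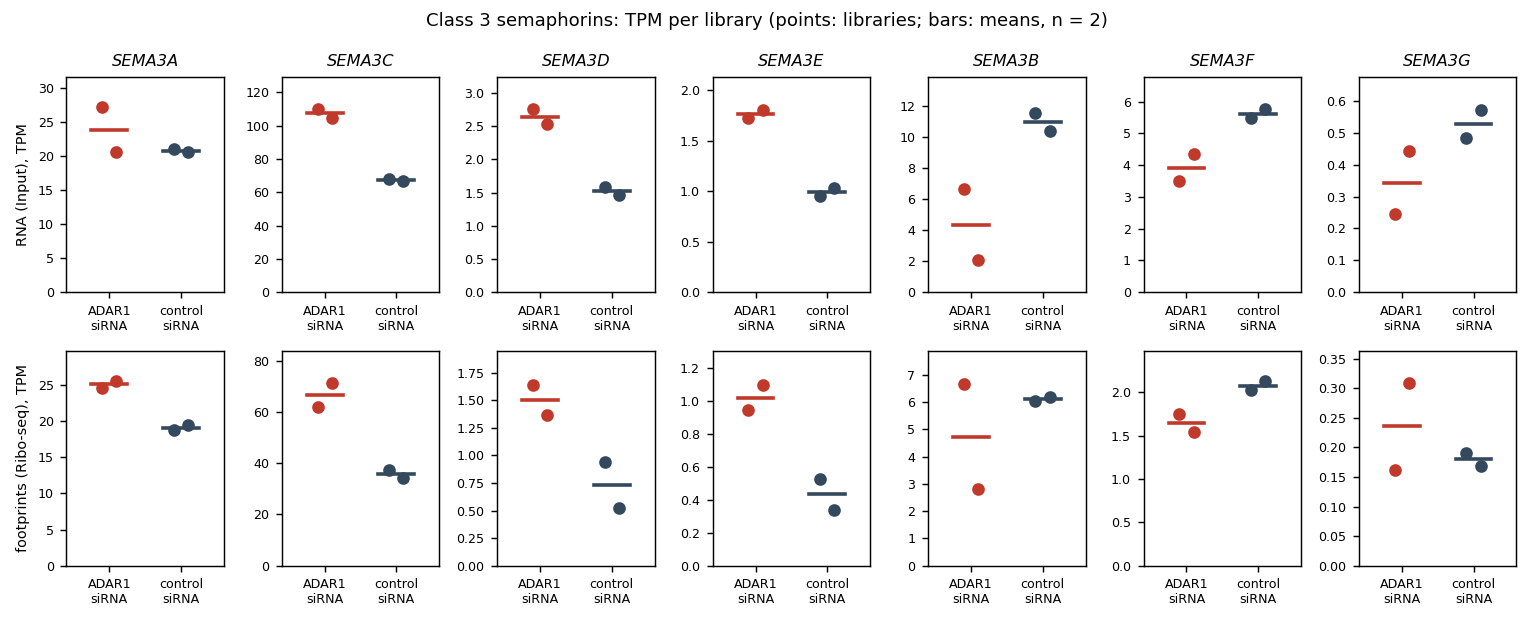
Levels (TPM, y axes starting at 0) of the 7 class 3 semaphorins in RNA (upper row) and footprints (lower row), with ADAR1 siRNA left of control siRNA. Points are single libraries and bars their mean (n = 2); in RNA both ADAR1 siRNA points of SEMA3C, SEMA3D and SEMA3E lie above the controls, those of SEMA3B, SEMA3F and SEMA3G lie below them, and those of SEMA3A overlap.

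The membrane-bound class 4 and class 6 semaphorins had RNA values below 0, and those of class 4 had footprint values above 0. By edgeR no member of these classes was called in either assay, while DESeq2 called SEMA4C and SEMA6B lower in RNA and SEMA4B and SEMA4D higher in footprints. SEMA4B, a transmembrane ligand, had 33.4 and 32.1 TPM in ADAR1 siRNA Input, against 41.0 and 39.6 TPM in control Input. Its footprints ran the other way, at 22.0 and 24.2 TPM with ADAR1 siRNA, against 16.4 and 15.8 TPM with control siRNA. Both separations were without overlap, with log2 fold changes of -0.32 ± 0.08 in RNA and 0.56 ± 0.15 in footprints (edgeR adjusted p = 0.0864 and 0.0624). SEMA4C, a ligand of PLXNB2, showed the same crossing, with 13.7 and 11.3 TPM in ADAR1 siRNA Input, against 18.0 and 17.8 TPM in control Input. Footprints of SEMA4C were at 7.11 and 7.15 TPM with ADAR1 siRNA, against 4.98 and 6.19 TPM with control siRNA. SEMA4D, a PLXNB1 ligand also known from lymphocytes, had -0.33 ± 0.09 in RNA and 0.81 ± 0.21 in footprints, and SEMA4F -0.32 ± 0.15 and 0.42 ± 0.24. All 5 class 4 genes had RNA values below 0, and all 4 tested in footprints had values above 0, with a median of 0.52. Of all genes, 6240 of 12644 were below 0 in RNA and 6527 of 12000 above 0 in footprints.

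The 4 class 6 genes had RNA values between -1.14 (SEMA6A) and -0.29 (SEMA6C). SEMA6B replicates disagreed in size, at 23.3 and 14.7 TPM in ADAR1 siRNA Input, against 31.1 and 27.9 TPM in control Input. SEMA6A rested on few footprint counts, 21 and 10 with ADAR1 siRNA against 2 and 6 with control siRNA, and was not tested in footprints. SEMA7A, a semaphorin held in the membrane by a lipid anchor and a ligand of integrins and PLXNC1, was the other semaphorin that edgeR called higher in footprints. Its footprints were at 48.4 and 54.1 TPM with ADAR1 siRNA, against 32.0 and 34.1 TPM with control siRNA, a log2 fold change of 0.72 ± 0.14, or 1.65-fold (edgeR adjusted p = 0.0404). SEMA7A RNA overlapped, at 68.1 and 92.9 TPM with ADAR1 siRNA, against 68.4 and 71.7 TPM with control siRNA. The footprint call ended without either one of the 2 control Ribo-seq libraries, at log2 values of 0.69 and 0.75.

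NTN4, a secreted netrin that binds laminin in basement membranes, had the largest called rise of the members. Its footprints were at 14.8 and 14.3 TPM with ADAR1 siRNA, against 5.79 and 6.05 TPM with control siRNA, a log2 fold change of 1.37 ± 0.18, or 2.59-fold (edgeR adjusted p = 0.0168). Its RNA was at 62.7 and 48.5 TPM with ADAR1 siRNA, against 34.6 and 34.8 TPM with control siRNA. The RNA groups did not overlap either, but the log2 fold change of 0.63 ± 0.11 had an adjusted p of 0.0672. NTN4 was also the only one of the 6 genes called higher in footprints whose call held when any one of the 4 Ribo-seq libraries was left out, at log2 values of 1.27 to 1.43. The other netrins were below the count minimum, NTN1, the classical netrin, with a mean count of 1.38.

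SLIT2, the secreted ligand of Robo receptors, was the one Slit with enough counts. It had 20.1 and 19.8 TPM in ADAR1 siRNA Input, against 21.5 and 21.0 TPM in control Input. Its footprints were at 2.56 and 2.58 TPM with ADAR1 siRNA and at 2.53 and 2.36 TPM with control siRNA. The groups were apart in both assays but by little, with log2 fold changes of -0.18 ± 0.08 and 0.18 ± 0.18, neither called.

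Of the 6 ephrins, EFNB2 rose in footprints, and by edgeR 0 passed the test in RNA, at the adjusted and at the unadjusted threshold. EFNB2, the transmembrane ephrin that marks arterial endothelium in development, had footprints of 18.9 and 21.3 TPM with ADAR1 siRNA, against 10.1 and 9.83 TPM with control siRNA. The log2 fold change was 1.10 ± 0.18, or 2.15-fold (edgeR adjusted p = 0.0278). Its RNA overlapped, at 63.5 and 45.6 TPM with ADAR1 siRNA, against 48.8 and 46.0 TPM with control siRNA, so the footprint rise had no matching RNA separation. EFNA4, a lipid-anchored ephrin, crossed between the assays as SEMA4B did. It had 5.18 and 8.10 TPM in ADAR1 siRNA Input, against 9.53 and 11.2 TPM in control Input, and 9.35 and 10.8 TPM in ADAR1 siRNA Ribo-seq, against 7.34 and 7.52 TPM in control Ribo-seq. Neither EFNA4 value was called, at log2 fold changes of -0.63 ± 0.29 and 0.53 ± 0.22. Of the others, EFNB1 and EFNA5 had footprint values of 0.61 ± 0.39 and 0.65 ± 0.22, while EFNA1 (-0.06 ± 0.27) and EFNA3 (-0.70 ± 0.61) lay below 0.

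Both neuropilins rose in footprints. NRP1, the co-receptor of class 3 semaphorins and of VEGF, was 1 of the 2 most abundant guidance genes in RNA, at 301.5 and 329.3 TPM with ADAR1 siRNA and 256.2 and 272.7 TPM with control siRNA. Its footprints were at 152.5 and 207.0 TPM with ADAR1 siRNA, against 122.7 and 120.3 TPM with control siRNA. The ADAR1 siRNA libraries lay above the controls in both assays, but they stood well apart from each other in footprints. The footprint log2 fold change of 0.68 ± 0.15, or 1.61-fold, was called (edgeR adjusted p = 0.0434), and the RNA value of 0.25 ± 0.08 was not (0.132). NRP1 was not called without either one of the 2 control Ribo-seq libraries, at log2 values of 0.69 and 0.67, and its value was 0.83 without ADAR1 siRNA Ribo-seq replicate 1 and 0.49 without replicate 2.

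NRP2, the related co-receptor with a preference for SEMA3F, was much lower in level. It had footprints of 6.89 and 8.92 TPM with ADAR1 siRNA, against 4.50 and 3.27 TPM with control siRNA, and RNA of 12.6 and 15.4 TPM with ADAR1 siRNA, against 10.3 and 12.1 TPM with control siRNA. The footprint log2 fold change was 1.11 ± 0.21, or 2.15-fold (edgeR adjusted p = 0.0373), and that of RNA 0.34 ± 0.14 (0.198). Neither assay showed overlap, and the RNA groups were separated narrowly. Of the class 3 semaphorins, 6 were tested in footprints, and SEMA3C alone was called. SEMA3A (0.49 ± 0.15), SEMA3D (0.83 ± 0.38) and SEMA3E (1.31 ± 0.40) were above 0 too. SEMA3B (-0.24 ± 0.36) and SEMA3F (-0.26 ± 0.26) were below 0.

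The 9 plexins, the signal-transducing receptors of semaphorins, had most values below 0 in RNA and above 0 in footprints, and by edgeR no single plexin passed the adjusted threshold, while DESeq2 called PLXNA2 and PLXND1 lower in RNA. In RNA 7 of 9 values were below 0, with a median of -0.33, against 6240 of 12644 genes below 0. In footprints 9 of 9 were above 0, with a median of 0.48, against 6527 of 12000 genes above 0. At an unadjusted p under 0.05, 5 of 9 plexins were lower in RNA, against 13.5% of all genes, and 6 of 9 were higher in footprints, against 12.7%. PLXNB2, a receptor of class 4 semaphorins and the most abundant plexin, had 63.3 and 59.6 TPM in ADAR1 siRNA Input, against 73.2 and 70.1 TPM in control Input. PLXNB2 footprints were at 27.8 and 28.0 TPM with ADAR1 siRNA, against 23.1 and 21.4 TPM with control siRNA. The crossing was without overlap in either assay, at log2 fold changes of -0.24 ± 0.06 and 0.43 ± 0.15.

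PLXND1, the receptor of SEMA3E in vessels, had 23.7 and 18.6 TPM in ADAR1 siRNA Input, against 29.5 and 28.4 TPM in control Input, and footprints of 4.71 and 4.87 TPM with ADAR1 siRNA, against 3.58 and 3.49 TPM with control siRNA. PLXNA3 had 13.0 and 12.7 TPM in ADAR1 siRNA Input, against 15.5 and 17.0 TPM in control Input, and footprints of 3.58 and 4.04 TPM with ADAR1 siRNA, against 2.90 TPM in each control. Both genes crossed as PLXNB2 did. PLXNA2 had 20.0 and 15.5 TPM in ADAR1 siRNA Input, against 27.7 and 26.6 TPM in control Input, one of the lowest adjusted p of the RNA values not called (log2 -0.66 ± 0.10, edgeR adjusted p = 0.0588). Its footprints overlapped, at 4.81 and 3.27 TPM with ADAR1 siRNA and 4.51 and 3.95 TPM with control siRNA. PLXNA1 showed how far the ADAR1 siRNA replicates could differ, at 68.7 and 35.6 TPM in Input, against 66.3 and 63.1 TPM in control Input. PLXNA1 footprints were at 21.3 and 13.2 TPM with ADAR1 siRNA, against 11.8 TPM in each control.

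Of the 9 Eph receptors none was called by edgeR in either assay. At an unadjusted p under 0.05 only EPHA2, 1 of 8 tested, was lower in RNA, against 13.5% of all genes. Only EPHB2 and EPHB4, 2 of 9 tested, were higher in footprints, against 12.7% of all genes. DESeq2 called EPHA2 lower in RNA, and EPHB2 and EPHB4 higher in footprints. EPHA2, a receptor tyrosine kinase abundant in many carcinomas, was the most abundant guidance gene in control RNA. It had 212.1 and 211.1 TPM in ADAR1 siRNA Input, against 276.4 and 277.5 TPM in control Input, a log2 fold change of -0.40 ± 0.06 (edgeR adjusted p = 0.0647). The RNA groups were tight and apart, while the footprint TPM overlapped, at 130.6 and 140.7 with ADAR1 siRNA and 128.2 and 138.0 with control siRNA. The EPHA2 footprint log2 fold change was 0.16 ± 0.13.

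EPHB2, a receptor of B-class ephrins, had footprints of 21.6 and 33.5 TPM with ADAR1 siRNA, against 20.3 and 16.5 TPM with control siRNA (0.60 ± 0.18, edgeR adjusted p = 0.0818). Its RNA straddled the controls, at 54.4 and 77.5 TPM with ADAR1 siRNA and 67.7 and 70.8 TPM with control siRNA. EPHB4, the receptor of EFNB2 on veins, stood at 0.80 ± 0.23 in footprints and -0.12 ± 0.08 in RNA. The 4 EPHB receptors had a median footprint value of 0.62 and the 5 EPHA receptors one of 0.16, with EPHA6 and EPHA7 below 0. EPHA5, EPHA6, EPHA7, EPHB3 and EPHB6 were near 1 TPM or below in control RNA, so their values carry wide errors.

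The 3 Robo receptors had RNA values between -0.53 (ROBO3) and -0.05 (ROBO4), and none was called. ROBO1, the main Slit receptor of many epithelia, had 28.0 and 23.5 TPM in ADAR1 siRNA Input and 26.1 and 27.5 TPM in control Input, and footprints of 4.15 and 5.28 TPM with ADAR1 siRNA, against 4.04 and 3.65 TPM with control siRNA. Its RNA groups overlapped in TPM but not in library-scaled counts, so the separation depended on the scale. ROBO4, known mainly from endothelium, had 33.5 and 19.7 TPM in ADAR1 siRNA Input and 23.9 and 26.9 TPM in control Input, and footprints of 9.42 and 6.48 TPM with ADAR1 siRNA, against 6.20 and 6.93 TPM with control siRNA. Its groups overlapped in both assays, and the 2 ADAR1 siRNA libraries fell on either side of the controls in RNA.

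L1CAM was the one guidance gene that edgeR called lower in RNA. It had 16.7 and 16.3 TPM in ADAR1 siRNA Input, against 31.2 and 32.4 TPM in control Input, a log2 fold change of -0.96 ± 0.08, or 1.95-fold lower (edgeR adjusted p = 0.0346). Its footprints overlapped, at 9.85 and 11.2 TPM with ADAR1 siRNA and 11.1 and 9.82 TPM with control siRNA, a log2 fold change of 0.10 ± 0.15. The lower RNA thus had no lower footprint level beside it.

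Footprints per RNA, or translational efficiency (TE), joined the 2 assays. In control cells the authors' deposited TE, a ratio of Ribo-seq TPM to Input TPM, had a median of 0.287 over the 49 members and 0.379 over 12454 genes. Of the members, 31 lay below that median of all genes. Plexins had a median of 0.179 and SLIT2 a TE of 0.115, while the A-class ephrins had a median of 0.981. The TE of EFNA1 (1.88), EFNA5 (1.24) and SEMA3A (0.917) was among the highest of the members. Levels between genes are compared here in TPM, which is per length.

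After ADAR1 siRNA most members had TE values above those of control cells, with no single member called by edgeR without a replicate block. In the interaction test over all 8 libraries 45 of 49 log2 changes were above 0, as were those of 7425 of 12953 genes tested. The median was 0.64 over the members, against 0.09 over all genes tested. By edgeR 0 members passed the adjusted threshold, and 0.0463% of all genes did. Limma-voom called 0 members and 0 of all genes. DESeq2 called 11 members, and 982 of all 12953 genes. At an unadjusted p under 0.05, 25 members (51.0%) were higher and 0 were lower, against 13.2% and 9.48% of all genes. In the authors' deposited TE both ADAR1 siRNA values lay above both controls for 34 members (69.4%) and below them for 0, against 24.6% and 28.3% of 12357 genes.

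The 5 smallest p-values of the interaction belonged to L1CAM, SEMA4B, PLXND1, SEMA4C and PLXNA3. L1CAM had an authors' TE of 0.591 and 0.687 with ADAR1 siRNA, against 0.355 and 0.303 with control siRNA, and an interaction log2 change of 1.09 ± 0.16 (edgeR adjusted p = 0.0534). SEMA4B had 0.658 and 0.754 with ADAR1 siRNA, against 0.401 and 0.399 with control siRNA. PLXND1 had 0.199 and 0.262 with ADAR1 siRNA, against 0.122 and 0.123 with control siRNA. In these 3 genes both ADAR1 siRNA values stood above both controls, and RNA was lower with no overlap. The interaction changes were 0.90 ± 0.15 for SEMA4B, 1.04 ± 0.18 for PLXND1, 1.12 ± 0.22 for SEMA4C and 0.84 ± 0.17 for PLXNA3, with adjusted p between 0.0534 and 0.0538. All 17 semaphorins and all 9 plexins had changes above 0, with medians of 0.77 and 0.74. Of all genes, 7425 of 12953 had changes above 0. Errors were wide for some of these members, such as SEMA4G (0.64 ± 0.89) and PLXNC1 (0.10 ± 0.38). EFNA1 (-0.39 ± 0.41), EPHA5, EPHA6 and EPHA7 lay below 0.

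Set side by side, the 2 assays put 23 of the 45 members tested in both (51.1%) below 0 in RNA and above 0 in footprints, against 24.8% of 11743 genes. Another 14 (31.1%) were above 0 in both, against 29.5%, and 7 (15.6%) below 0 in both, against 24.6%. EFNA1 alone (2.22%) was above 0 in RNA and below 0 in footprints, against 21.0%. For 13 members (28.9%), against 7.57% of genes, RNA was lower and footprints higher with no overlap on library-scaled counts in either assay: SEMA4B, SEMA4C, SEMA4D, SEMA4F, SEMA6C, EFNA4, SLIT2, PLXNA3, PLXNB2, PLXND1, EPHA2, EPHB4 and ROBO1. In TPM the footprints of EPHA2 and the RNA of ROBO1 overlapped, so the crossing of these genes depended on the scale. The 6 genes called in footprints were above 0 in RNA too.

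**Figure D4:**
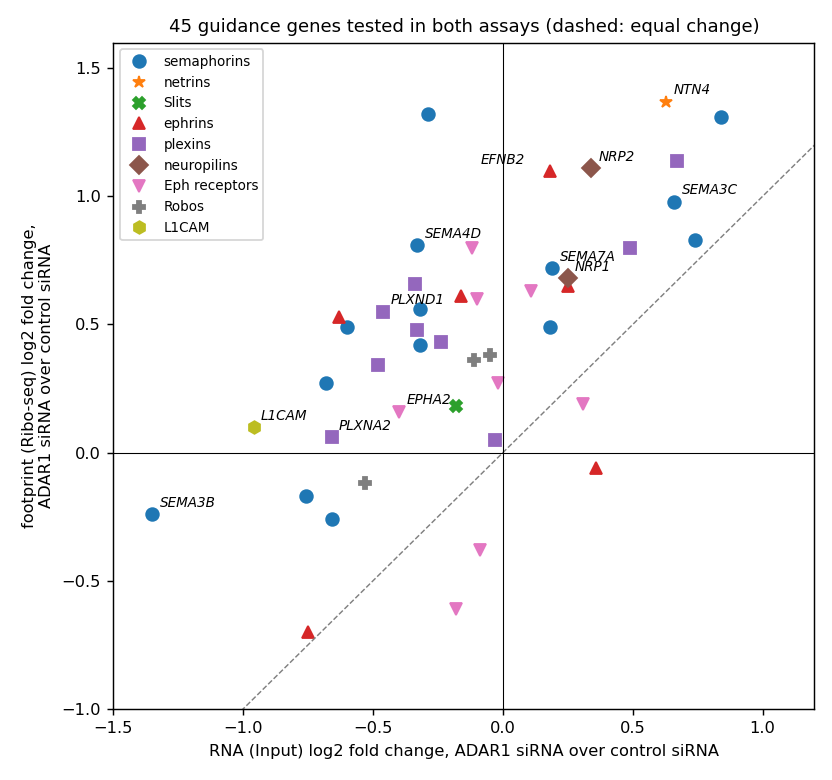
RNA log2 fold change (x axis) against footprint log2 fold change (y axis), ADAR1 siRNA over control siRNA, of the 45 guidance genes tested in both assays, each point 1 gene with a symbol for its family and a dashed line for equal change. The upper left part, RNA below 0 and footprints above 0, holds 23 genes, and the upper right part holds 14, including the 6 genes called in footprints.

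Downstream genes of the same pathways were examined in 5 lists. Of 37 co-receptors and other cues, 1 of 14 tested in footprints rose: ITGB1, the beta-1 integrin subunit, at 615.1 and 626.5 TPM with ADAR1 siRNA, against 399.4 and 348.8 TPM with control siRNA (log2 0.83 ± 0.14, edgeR adjusted p = 0.0334). That list had a median TE change of 0.60, with 18 of 18 tested values above 0, against 7425 of 12953 over all genes. Of 29 ephrin-Eph effectors tested in footprints, 1 rose, ADAM10, the protease that sheds ephrins, at 81.7 and 81.9 TPM with ADAR1 siRNA, against 53.7 and 50.9 TPM with control siRNA (0.71 ± 0.15, adjusted p = 0.0422). Each of these lists thus held 1 gene called higher in footprints, where 1.88% of all genes were.

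None of 24 semaphorin-plexin effectors and none of 25 netrin and Slit-Robo effectors tested in footprints was called by edgeR, with 4 of each list under an unadjusted p of 0.05, where 24.0% of all genes were. Of 36 cytoskeletal effectors tested in footprints, 1 was called lower, where 1.67% of all genes were. In RNA and in TE none of the 5 lists held a called gene by edgeR, where 0.253% and 0.0463% of all genes were called. DESeq2 called 449 of 12644 genes in RNA and 982 of 12953 in TE, and 6 and 9 of these were in the lists. At an unadjusted p under 0.05 were 45 of their 135 genes in RNA, where 25.3% of all genes were, and 31 of 136 in TE, where 22.7% of all genes were. The smallest p in RNA over the lists was that of VASP, an actin regulator of the netrin and Slit-Robo list, at 90.7 and 79.9 TPM with ADAR1 siRNA, against 119.9 and 118.9 TPM with control siRNA (-0.50 ± 0.07, edgeR adjusted p = 0.0527). The median TE change was 0.29 for the semaphorin-plexin effectors, 0.18 for the ephrin-Eph effectors, 0.15 for the netrin and Slit-Robo effectors and 0.03 for the cytoskeletal effectors. Ligands and receptors had medians of 0.77 and 0.55. The effector lists thus lay nearer to the median of all genes, 0.09, than did the ligands and receptors. This difference was not tested.

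Several guidance genes are also marker genes of nerve and vessel, so markers of other cell types were read in the same libraries. Of 12 endothelial markers, 6 averaged at least 1 TPM in Input (ESAM, KDR, PECAM1, ENG, CD34 and TIE1) and the other 6, CDH5 and VWF among them, averaged less. The list summed to 214.7 and 195.9 TPM with ADAR1 siRNA, against 283.2 and 287.4 TPM with control siRNA. In Ribo-seq the list summed to 59.2 and 52.0 TPM with ADAR1 siRNA and 53.4 and 59.6 TPM with control siRNA. The endothelial sum was thus lower with ADAR1 siRNA in RNA and overlapped in footprints. Of 15 neuronal markers, TUBB3, SYT1 and MAP2 averaged at least 1 TPM, and NEFM, STMN2, ELAVL4 and DCX were listed at 0 in each Input library. The neuronal list summed to 98.1 and 89.9 TPM in ADAR1 siRNA Input, against 109.4 and 104.8 TPM in control Input. In Ribo-seq it summed to 58.2 and 76.9 TPM with ADAR1 siRNA and 76.5 and 88.2 TPM with control siRNA. The neuronal sum was lower in RNA too and overlapped in footprints. Of the 4 neuronal markers tested in RNA, however, 3 were above 0 and 1 was below, with a median log2 fold change of 0.63. By edgeR at an unadjusted p under 0.05, 2 were higher and 1 was lower, against 11.8% and 13.5% of all genes. The lower neuronal sum was thus not the direction of most tested markers. Of 12 immune markers, CD68, CD14, LYZ and CSF1R averaged at least 1 TPM, and CD3D and MS4A1 were listed at 0; the list summed to 190.0 and 184.2 TPM in ADAR1 siRNA Input, against 239.2 and 238.9 TPM in control Input. In Ribo-seq the immune list summed to 109.2 and 100.2 TPM with ADAR1 siRNA and 111.4 and 119.9 TPM with control siRNA. The immune sum was lower with ADAR1 siRNA in both assays. Of the immune markers tested, 3 of 5 were below 0 in RNA and 3 of 4 in footprints. By edgeR at an unadjusted p under 0.05, 0 were higher and 2 lower in RNA, against 11.8% and 13.5% of all genes. In footprints 1 was higher and 0 were lower, against 12.7% and 11.3%. The part of these markers in the guidance results was not tested.

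Coordinates of 5 members overlap another protein-coding gene of the table: EPHB4 with SLC12A9, PLXNA3 with LAGE3, PLXNC1 with CEP83, SEMA4D with SECISBP2, and SEMA4G with MRPL43. The strand setting of the counting is not stated, so reads of these neighbours may be mixed, and the values of these 5 genes are uncertain to that extent.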

How the data were processed

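Libraries were grouped by their titles, with 2 per group and 4 groups. Per the labels' protocols, lysates were run on sucrose gradients and RNA was cut from gels by size, shorter pieces for Ribo-seq and longer ones for Input. Tools named in the submitters' processing notes are STAR, Bowtie2, featureCounts and cutadapt, without versions or roles, and the build is GRCh38 (hg38). The authors deposited estimated counts without normalization, of which 87.02% to 90.11% per library were whole numbers. The authors also deposited TPM values. The authors' deposited TE is a ratio, which equalled Ribo-seq TPM over Input TPM for 99.993% to 100% of values per library within a relative tolerance of 1e-06. Gene numbers were matched to symbols for 19669 of 19892 genes.

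Estimated counts were rounded and tested with edgeR 4.0.16 in R 4.3.3: filterByExpr, TMM scaling and two-sided quasi-likelihood tests, adjusted by the Benjamini-Hochberg method over all genes tested, with a threshold of 0.05. RNA used the 4 Input libraries, footprints the 4 Ribo-seq libraries, and TE the interaction of assay and siRNA over all 8, without a replicate block. A standard error is the log2 fold change divided by the square root of F. With 2 libraries against 2, the smallest two-sided exact permutation p is 0.333. Whether groups overlap was read on TMM-scaled counts in RNA and footprints, and on the authors' values in TE. Scripts were tested on simulated data. Reads carry no molecular identifiers that the labels mention. The mean chi-square per gene between replicates was 16.9 for ADAR1 siRNA and 1.91 for control siRNA in Input, and 32.8 and 6.82 in Ribo-seq, so no pair was merged.

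Members, gene lists and tests were chosen with earlier results of these data known. Values in each library are given for members called in any comparison, the 5 of smallest p per comparison, and the 2 most abundant per family in control Input, 20 genes in all. SEMA3A, SEMA3B and other members appear with their fold changes or single values. From the 5 pathway lists, called genes and the one of smallest p per list and comparison could be named. The gene of the cytoskeletal list called lower in footprints is not reported here, though counts include it. Alternatives were DESeq2 1.42.0, limma-voom (limma 3.58.1), other scalings and filters, a replicate block, a member minimum of 50 counts, and leaving out each library. Promoter windows were matched for 45 of 49 members.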

Additional observations from a re-analysis of the deposited data

How the results depend on the processing

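No alternative turned the direction of a called value. With DESeq2 the members called numbered 8 in RNA, 10 in footprints and 11 in TE (2, 6 and 0 by edgeR as reported). The pathway-list genes called numbered 6, 10 and 9 (0, 3 and 0 as reported). Over all genes DESeq2 called 449 of 12644, 978 of 12000 and 982 of 12953 (32, 425 and 6 by edgeR as reported). Without a filter on low counts, 14 members were called in footprints and 13 in TE. The list genes called were 2, 22 and 5 in RNA, footprints and TE. Over all genes this setting called 95 of 16281, 1693 of 15536 and 854 of 16931. With only genes of a mean count of at least 50, 1 list gene was called in RNA, and 73 of 11098 genes. The RNA median of -0.18 was -0.157 with that filter and -0.138 with a member minimum of 50. Same-numbered replicates did not deviate together between siRNAs (correlation 0.00 in Input and 0.02 in Ribo-seq). Between Ribo-seq and Input the correlation was 0.31 with ADAR1 siRNA and 0.02 with control siRNA, so the numbers were not taken to pair libraries throughout, and a pairing of the assays within ADAR1 siRNA is a hint from the data only. With a replicate block, 10, 16 and 10 members were called in RNA, footprints and TE, and 15, 28 and 2 list genes. Over all genes this block called 1095 of 12644, 2102 of 12000 and 448 of 12953. With a block by siRNA and replicate number across the 2 assays, 18 members and 11 list genes were called in TE. That block called 1169 of 12953 genes. Leaving out 1 library at a time gave 0 to 27 members called in RNA, 1 to 16 in footprints and 0 to 15 in TE; 0 to 70, 0 to 34 and 0 to 24 list genes; and medians of -0.231 to -0.194 in RNA and 0.511 to 0.742 in TE. Of the footprint calls, NTN4 was kept in 4 of 4 such fits, EFNB2, NRP2 and SEMA3C in 3, and NRP1 and SEMA7A in 2; the RNA calls of SEMA3C and L1CAM were kept in 2 of 4. All 8 calls were kept in 7 of 7 other settings. RNA values of EPHB2 and ROBO4, not called and below 0 as reported, turned and passed the threshold without 1 library: EPHB2 was at 0.17 without ADAR1 siRNA Input replicate 1 and at -0.43 without replicate 2, and ROBO4 at -0.39 without replicate 1 and at 0.23 without replicate 2; the cause was not tested. Where 1 library was left in a group, it was assumed to vary like the other pair, and in RNA and footprints more members were called when the pair left was the controls, whose replicates lay closer together. With 2 libraries per group, members near 1 TPM carry standard errors of up to 0.89 in log2 TE, so a change of that size was not detectable in them.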
